A study of Mus musculus with 4 samples.

Results

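Axon guidance ligands and receptors steer growing axons and migrating neurons toward or away from their targets. Semaphorins signal through plexins, with neuropilins as co-receptors of the secreted class, ephrins activate Eph receptor tyrosine kinases between touching cells, Slits repel axons through Robo receptors, and netrins attract through DCC and repel through UNC5 receptors. In the hippocampus these families are known for placing the fibre tracts that join the dentate gyrus, the CA fields and the entorhinal cortex. The genes were chosen by symbol among the protein-coding genes of the GENCODE annotation of mm10: every Sema, Plxn, Epha, Ephb, Efna, Efnb, Robo, Ntn and Unc5 gene, together with Slit1, Slit2, Slit3, Dcc, Nrp1 and Nrp2. This gave 71 of 21938 genes in 8 families, 35 coding for ligands and 34 for receptors. The remaining 2, Unc50 and Unc5cl, match the symbol rule by name only and are not netrin receptors.

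The chromatin data are ATAC-seq peak lists, in which Tn5 transposase marks open DNA, from hippocampi of mice at postnatal day 0 (P0). The cKO group (2 libraries, genotype Kdm2bEmx1-delta-CxxC) carried an Emx1-Cre deletion of the exon for the CxxC zinc finger of KDM2B, the domain with which this Polycomb component binds CpG islands. The Ctrl group (2 libraries) is labelled Kdm2bfl/+ or Kdm2bfl/fl, without saying which library is which, so floxed alleles are shared by both groups and Cre is not stated for Ctrl. Emx1-Cre acts in the dorsal telencephalon, and cells of other origin in the same dissection, such as interneurons, microglia and vessels, are not its targets. The labels name neural progenitor cells as the source while titles and protocol name hippocampus, and they do not say whether libraries came from separate animals, so the spread between 2 libraries may be technical. In whole tissue, a lower signal in all cells and fewer cells with the signal cannot be told apart.

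Replicates 1 and 2 of each group are called Ctrl1, Ctrl2, cKO1 and cKO2, and values for all 4 libraries are given in that order. In the number of peaks the libraries differed more within the Ctrl group than between the groups. Their lists had 46389, 7037, 21404 and 44535 peaks, and the fragments behind them were estimated at 14.6 M to 29.6 M, the most in Ctrl2. In that library 60.6% of peaks lay mostly in repeat-masked sequence, against 5.37% to 14.7% in the other lists, and comparisons of the groups are therefore given with and without it. Hippocampal progenitor and neuron markers had a promoter peak for 12, 0, 8 and 13 of 13 genes in Ctrl1, Ctrl2, cKO1 and cKO2, in that order. Interneuron markers had 6, 0, 1 and 2 of 9, Cajal-Retzius markers 3, 0, 0 and 2 of 5, microglial markers 2, 0, 0 and 1 of 8, blood vessel markers 3, 0, 2 and 1 of 8, oligodendrocyte markers 2, 0, 0 and 2 of 6, choroid plexus and ependyma markers 2, 0, 2 and 2 of 6 and blood markers 1, 0, 0 and 1 of 5, while the 4 markers of other tissues had none in any list. Every list of markers was at 0 in Ctrl2, the shortest list, and the part of these cells in the results below was not tested.

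Promoters of the 3 genes that ranked highest on average over the 4 libraries are shown first, with their CpG content. Each window is the 250 bases directly upstream of the transcription start site (TSS) of Epha7, a receptor of A-type ephrins, of Efnb2, a transmembrane ligand of EphB receptors, and of Ephb3, one of those receptors. All are from the mm10 reference and read 5′ to 3′ on the strand of the gene, with CpG dinucleotides in capitals, the step that CxxC zinc fingers recognise.
Epha7 chr4:28812881-28813130 (plus strand): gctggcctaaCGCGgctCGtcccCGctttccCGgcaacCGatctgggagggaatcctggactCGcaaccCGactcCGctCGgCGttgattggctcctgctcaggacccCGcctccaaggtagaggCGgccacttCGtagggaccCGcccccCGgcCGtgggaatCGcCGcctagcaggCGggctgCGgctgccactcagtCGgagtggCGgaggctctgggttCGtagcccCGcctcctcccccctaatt
Efnb2 chr8:8661243-8661492 (minus strand): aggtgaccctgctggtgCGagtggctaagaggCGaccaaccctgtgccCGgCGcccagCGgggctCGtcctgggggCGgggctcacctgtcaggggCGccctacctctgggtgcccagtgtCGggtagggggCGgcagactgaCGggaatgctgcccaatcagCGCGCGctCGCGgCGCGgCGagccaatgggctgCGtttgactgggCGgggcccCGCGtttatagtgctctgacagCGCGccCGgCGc
Ephb3 chr16:21204505-21204754 (plus strand): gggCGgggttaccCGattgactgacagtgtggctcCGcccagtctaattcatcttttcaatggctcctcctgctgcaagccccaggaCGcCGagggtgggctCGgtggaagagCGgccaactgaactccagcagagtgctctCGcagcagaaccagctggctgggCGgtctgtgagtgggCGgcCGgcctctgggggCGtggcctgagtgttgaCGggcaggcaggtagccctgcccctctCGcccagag
The windows held 25, 27 and 14 CpGs, with GC contents of 69.2%, 72% and 65.6%. Measured at the outermost TSS, the 71 genes had a median of 15 CpGs in such a window and 69% of them had at least 10. Over all protein-coding genes the median was 8 and the share 46%. A CpG island touched a promoter (2 kb on either side of a TSS) of 61 of the 71 genes.

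Within the gene bodies, the 4 regions printed next are among the 5 with the best mean rank of those found in at least 3 lists. All are classed as intronic within the record of the gene and lie far from any TSS. Each window is the 200 bases centred on the summit, the point of highest fragment depth, in the library with the strongest peak, on the plus strand of mm10. Capitals mark short binding motifs found on either strand: TAATTA (homeodomain core), CAGATG (NEUROD and NEUROG E-box), TGCCAA (NFI), ATCAAAG (TCF/LEF), TGACTCA (AP-1), ACAATG (SOX) and CCGCCC (SP and KLF). None of these motifs is a substring of another.
Epha6 chr16:60102258-60102457 (plus strand): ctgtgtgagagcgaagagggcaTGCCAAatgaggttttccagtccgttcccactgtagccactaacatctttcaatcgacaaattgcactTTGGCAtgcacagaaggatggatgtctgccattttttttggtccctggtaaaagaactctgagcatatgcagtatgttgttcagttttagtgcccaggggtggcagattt
Robo1 chr16:72699418-72699617 (plus strand): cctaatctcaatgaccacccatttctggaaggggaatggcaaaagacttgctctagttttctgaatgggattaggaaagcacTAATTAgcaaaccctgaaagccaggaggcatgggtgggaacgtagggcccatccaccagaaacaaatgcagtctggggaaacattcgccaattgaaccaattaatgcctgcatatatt
Robo1 chr16:72510900-72511099 (plus strand): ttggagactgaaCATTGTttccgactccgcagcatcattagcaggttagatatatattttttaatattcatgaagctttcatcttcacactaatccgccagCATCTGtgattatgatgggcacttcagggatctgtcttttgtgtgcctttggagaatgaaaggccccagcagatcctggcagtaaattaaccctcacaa
Ephb2 chr4:136716627-136716826 (plus strand): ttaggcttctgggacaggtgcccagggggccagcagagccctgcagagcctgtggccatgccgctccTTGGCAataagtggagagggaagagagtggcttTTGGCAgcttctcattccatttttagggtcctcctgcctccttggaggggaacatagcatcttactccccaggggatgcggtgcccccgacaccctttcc
The Epha6 and Ephb2 windows each hold 2 TGCCAA motifs, the first Robo1 window a TAATTA, and the second an ACAATG and a CAGATG. Among 200-base windows at all 336 gene-body regions of the guidance genes, TAATTA was in 15.2%, CAGATG in 29.2% and TGCCAA in 26.8%. The same shares over 21123 gene-body regions of all protein-coding genes were 10.7%, 25.1% and 26.8%. ACAATG was in 10.7% of guidance regions and 10.5% of all, ATCAAAG in 3.27% and 2.79%, TGACTCA in 3.57% and 3.66%, and CCGCCC in 4.76% and 7.05%. These are matches of letters and do not show binding.

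Most guidance genes had a promoter peak in the libraries with long lists, and few had one in the short list of Ctrl2. A promoter peak, meaning a peak with its summit within 2 kb of a TSS of the gene, was present for 59 (83.1%), 2 (2.82%), 36 (50.7%) and 55 (77.5%) of the 71 genes in the 4 libraries. Over all protein-coding genes the shares were 58%, 8.27%, 40.3% and 55.9%, so guidance genes lay above the genome in 3 libraries and below it in Ctrl2. The mean was 45.5 ± 13.4 genes in cKO (SD, n = 2) and 30.5 ± 40.3 in Ctrl, a difference of 15 that is smaller than the spread between the Ctrl libraries. Without Ctrl2 the difference was −13.5.

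Genes with a CpG island had promoter peaks more often than genes without one. Among the 61 guidance genes with an island, 88.5%, 3.28%, 55.7% and 83.6% had a promoter peak in Ctrl1, Ctrl2, cKO1 and cKO2. All CpG island genes gave 87.1%, 13.5%, 63.4% and 84.9%, close to the guidance genes in the long lists and above them in Ctrl2 and cKO1. The 10 genes without an island had peaks in 50%, 0%, 20% and 40%, against 18.3%, 1.18%, 8.66% and 16.2% of all genes without one. Where present, guidance promoter peaks were weaker at the median than those of all genes with a promoter peak. Their median percentile, the share of protein-coding genes with a weaker promoter in the same library, was 59.6 in Ctrl1, 72 in cKO1 and 61 in cKO2. The medians over all genes with a promoter peak in these libraries were 71, 79.9 and 72.1. The mean share of island genes with a peak was 69.7% ± 19.7 in cKO and 45.9% ± 60.3 in Ctrl (SD, n = 2 each), again within the spread of Ctrl.

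**Figure D1:**
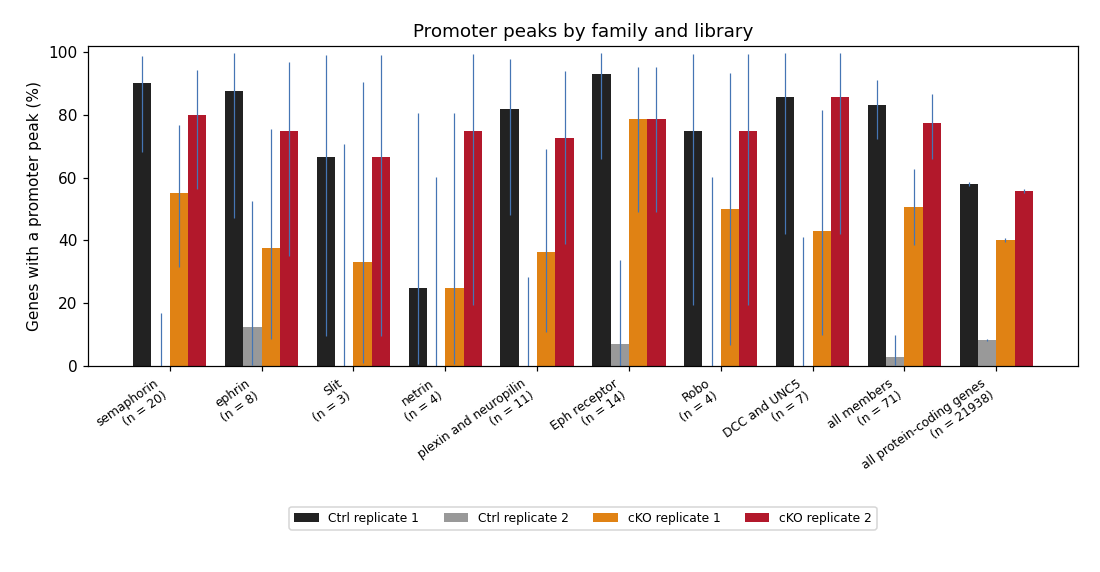
Share of genes with a promoter peak (vertical axis, percent) in each family, in all 71 guidance genes (all members) and in all protein-coding genes, 1 bar per library; lines are exact 95% binomial intervals, which cover counting error only. Ctrl2 has bars only for ephrins and Eph receptors among the families, and the DCC and UNC5 group includes Unc50 and Unc5cl.

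By pattern over the lists, 33 genes had a promoter peak in every list but Ctrl2, 18 in Ctrl1 and cKO2 alone, 6 in Ctrl1 alone, 1 (Ntn4) in cKO2 alone, 2 in all 4 and 10 in none. As shares of the 71 genes these were 46.5%, 25.4%, 8.45%, 1.41%, 2.82% and 14.1%, against 31.8%, 14%, 3.88%, 1.78%, 8.02% and 39.8% of all protein-coding genes. Netrin 5 (Ntn5) was the 1 gene with a peak in cKO1 and cKO2 but not in Ctrl1 or Ctrl2 (1.41%, against 0.123% of all protein-coding genes). Receptor promoters had peaks in 88.2%, 2.94%, 55.9% and 79.4% of 34 genes in Ctrl1, Ctrl2, cKO1 and cKO2, and ligand promoters in 80%, 2.86%, 45.7% and 77.1% of 35. The exact 95% binomial intervals of ligands and receptors overlapped in every library, at 63.1% to 91.6% and 72.5% to 96.7% in Ctrl1. They cover counting error only, and their overlap is not a test of a difference.

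**Figure D2:**
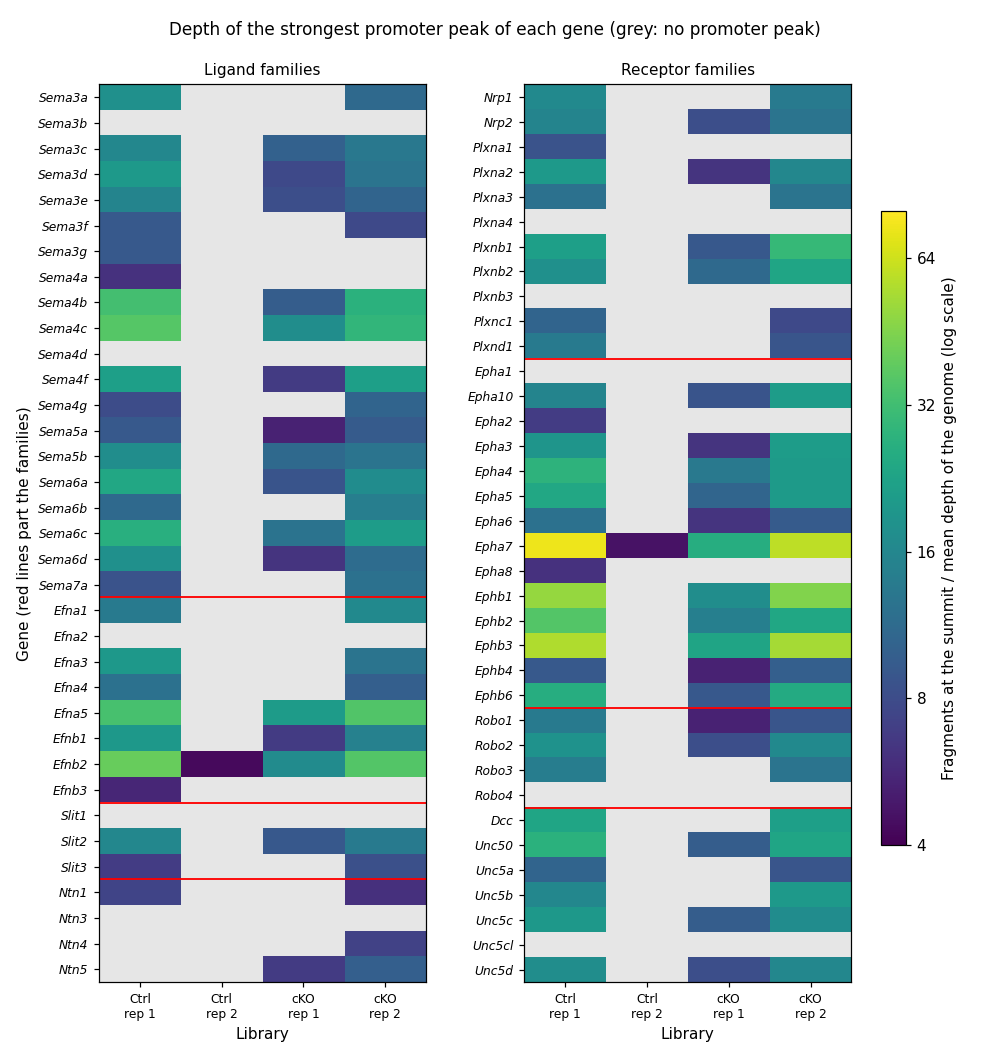
Scaled depth (fragments at the summit over the genome-wide mean, log colour scale) of the strongest promoter peak of each gene in the 4 libraries, ligand families on the left and receptor families on the right, grey where a gene has no promoter peak. Epha7 is the brightest row, and only Epha7 and Efnb2 are coloured in Ctrl2.

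Semaphorins are the largest ligand family, with secreted class 3 and membrane-bound classes 4 to 7. Of the 20, a promoter peak was found for 18, 0, 11 and 16 in Ctrl1, Ctrl2, cKO1 and cKO2. The strongest by mean percentile were Sema4b and Sema4c, membrane-bound ligands of B-type plexins. Fragment counts here and in the families below are not scaled to depth. The mean depth of the genome was 1.62 in Ctrl1, 2.07 in cKO1 and 1.81 in cKO2. Equal counts thus mean a lower scaled depth in the cKO libraries. At the Sema4b summit 53 fragments were counted in Ctrl1, 20 in cKO1 and 49 in cKO2, and at the Sema4c summit 59, 36 and 52. For both genes Ctrl1 held the most fragments and Ctrl2 had no peak. Sema6c, a transmembrane semaphorin, had 43, 26 and 38 fragments in the same order. Sema3a, the classic secreted repellent that acts through neuropilin 1, has no CpG island by the definition used and had 29 fragments in Ctrl1 and 20 in cKO2, with no peak in the other lists. The remaining 8 semaphorins with peaks in these 3 lists (Sema3c, Sema3d, Sema3e, Sema4f, Sema5a, Sema5b, Sema6a and Sema6d) had 15 to 39 fragments in Ctrl1, 11 to 23 in cKO1 and 17 to 39 in cKO2. Sema3f, Sema4g, Sema6b and Sema7a were found in Ctrl1 and cKO2 alone, with 13 to 18 and 14 to 26 fragments, and Sema3g and Sema4a in Ctrl1 alone, with 15 and 10. Sema3b and Sema4d had no promoter peak in any list, and the summit nearest to a Sema3b TSS lay 3591, 3590 and 3162 bp away in Ctrl1, cKO1 and cKO2.

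Ephrins gave 7, 1, 3 and 6 of 8 genes with a promoter peak. Efnb2 (chr8:8617434-8661242) had a promoter peak in every list, with 65 fragments at the summit in Ctrl1, 15 in Ctrl2, 35 in cKO1 and 65 in cKO2. Its summits lay 98 to 248 bp upstream of the TSS, inside the window printed above, and 311 to 461 bp from the start of the noncoding gene 4921522P10Rik. The percentiles of Efnb2 were 80.4, 92.2, 85.3 and 83.4, so the Ctrl values enclosed both cKO values (exact permutation test, two-sided, p = 1, n = 2 per group). This rests on the weak peak of Ctrl2, with a −log10 q of 2.47: at a −log10 q of at least 5 that peak is lost and the difference, cKO minus Ctrl, goes from −1.97 to 44.2. The place of Efnb2 among the promoters printed above rests on the same peak. In Ctrl1, cKO1 and cKO2 its percentiles lay below those of Ephb1, at 90.6, 89.6 and 91.8. Efna5, a membrane-anchored ligand of EphA receptors, stood at percentiles of 76.9 in Ctrl1, 93.2 in cKO1 and 84.6 in cKO2. The Efna5 summits were not at the start itself but 1821, 1821 and 1807 bp upstream, near the 2 kb limit. Efnb1, another transmembrane ephrin, had 32, 14 and 27 fragments in the same libraries. Efna1, Efna3 and Efna4 were found in Ctrl1, with 22, 32 and 20 fragments, and in cKO2, with 30, 23 and 18, and Efnb3 in Ctrl1 alone, with 9. Efna2 had no promoter peak, and its nearest summit lay 6351 to 6416 bp upstream in 3 lists and 19447 bp away in Ctrl2.

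Slits had a promoter peak for 2, 0, 1 and 2 of 3 genes and netrins for 1, 0, 1 and 3 of 4. Slit2 had 26 fragments in Ctrl1, 19 in cKO1 and 25 in cKO2. Slit3 had 11 in Ctrl1 and 15 in cKO2 only. Slit1 had no promoter peak in any list, and its nearest peak fell just outside the limit. That summit lay 2445, 2394 and 2405 bp upstream of the Slit1 TSS, with 85, 51 and 83 fragments in Ctrl1, cKO1 and cKO2, more than at the promoter peak of every other ligand. It was absent from Ctrl2. The farthest summit counted inside the limit was that of Sema6b in cKO2, 1990 bp from the TSS with 26 fragments. Netrin 1 (Ntn1), the founding attractant of the family, had 12 fragments in Ctrl1 and 11 in cKO2. Ntn5 had 14 fragments in cKO1 and 18 in cKO2, at summits 1093 and 1130 bp upstream, with exact 95% Poisson intervals of 7.65 to 23.5 and 10.7 to 28.4. These counts are close to the lowest that any promoter peak of the guidance genes had in those lists, 11 in each. Ntn4 had a peak in cKO2 alone, with 13 fragments. Ntn3 had no promoter peak, with its nearest summits 2360 bp upstream in Ctrl1 and 2692 bp upstream in cKO2.

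Eph receptors had a promoter peak for 13, 1, 11 and 11 of 14 genes, the highest share of any receptor family in Ctrl1 and cKO1. Epha7 (chr4:28813131-28967499) ranked 842 among all peaks of Ctrl1, 4800 in Ctrl2, 1043 in cKO1 and 1045 in cKO2, by −log10 p. Its summits held 120, 16, 54 and 107 fragments, with exact 95% Poisson intervals of 9.15 to 26 in Ctrl2, 40.6 to 70.5 in cKO1 and 87.7 to 129 in cKO2. The percentiles of 95.9, 93.3, 96.2 and 95.1 overlapped between the groups (exact permutation test, two-sided, p = 0.667, n = 2 per group). At a −log10 q of at least 5 the Ctrl2 peak is lost and the difference goes from 0.994 to 47.7. EphB receptors for the transmembrane ephrins followed. Ephb3 (chr16:21204755-21223305) had 91 fragments in Ctrl1, 48 in cKO1 and 97 in cKO2, and Ephb1 had 81, 36 and 82. Ephb2 had 58, 30 and 43. Scaled to the mean depth, Ephb3 stood at 56.1, 23.1 and 53.7, Ephb1 at 49.9, 17.4 and 45.4 and Ephb2 at 35.8, 14.5 and 23.8. None of the 3 had a peak in Ctrl2, and cKO1 was the lowest of the remaining libraries for each. The other 7 receptors found in these 3 lists (Epha3, Epha4, Epha5, Epha6, Epha10, Ephb4 and Ephb6) had 15 to 45 fragments in Ctrl1, 11 to 28 in cKO1 and 17 to 45 in cKO2. Epha2 and Epha8 had a weak peak in Ctrl1 alone, with 11 and 10 fragments, and Epha1 had none.

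Plexins and neuropilins gave 9, 0, 4 and 8 of 11 promoters with a peak. Plxnb1 and Plxnb2, receptors of class 4 semaphorins, had more fragments in cKO2 than in Ctrl1 and fewer in cKO1. At the Plxnb1 summit 35 fragments were counted in Ctrl1, 19 in cKO1 and 54 in cKO2, and at the Plxnb2 summit 29, 23 and 42. Nrp2, the co-receptor of Sema3f, had 25, 17 and 23 in the same order. Nrp1, the co-receptor of Sema3a, had 27 in Ctrl1 and 25 in cKO2. Plxna2 had 33, 13 and 29 fragments in Ctrl1, cKO1 and cKO2. Plxna3, Plxnc1 and Plxnd1 had 17 to 22 in Ctrl1 and 14 to 23 in cKO2, and Plxna1 had 14 in Ctrl1 alone. Plxna4 and Plxnb3 had no promoter peak, although Plxna4 had many peaks in its body.

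Robo and netrin receptors had mostly shared, moderate promoter peaks. Robo2 had 30 fragments in Ctrl1, 17 in cKO1 and 30 in cKO2, at summits 1716 to 1795 bp upstream of the TSS. Robo1 had 22, 11 and 16, and Robo3 had 23 in both Ctrl1 and cKO2. Robo4, known from vessel endothelium, had no promoter peak in any list. Dcc, the attractive netrin receptor, had 38 fragments in Ctrl1 and 39 in cKO2. Unc5d and Unc5c, which mediate repulsion, had 28, 17 and 29 and 32, 20 and 31 fragments in the 3 libraries with peaks. Unc5a and Unc5b were found in Ctrl1, with 17 and 26 fragments, and in cKO2, with 16 and 36. Unc50 shares its start with Coa5, whose TSS lay 5 to 40 bp from the summits, and its peak cannot be assigned to 1 of the genes. Unc5cl had no promoter peak.

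**Figure D3:**
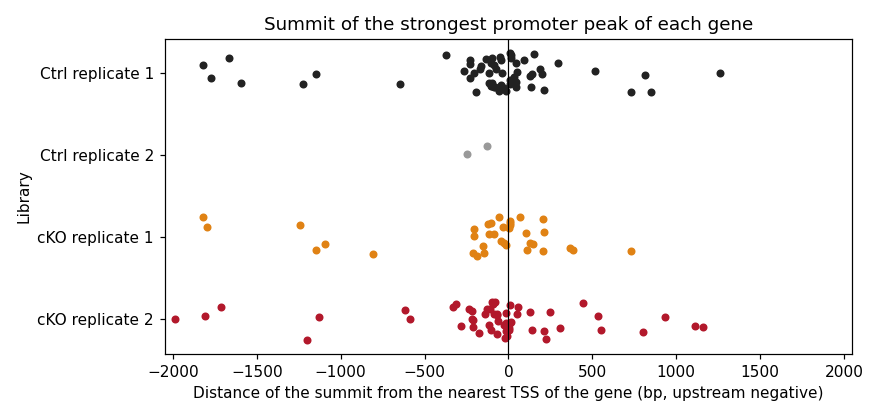
Signed distance (bp, upstream negative) from the summit of the strongest promoter peak to the nearest TSS of the same gene, 1 point per gene and library. Points gather around 0, with 46 of 59 summits of Ctrl1 within 300 bp and a smaller set upstream of 1 kb.

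Promoter summits lay close to the starts. In Ctrl1, cKO1 and cKO2 the median distance to the TSS was 127, 144 and 141 bp, and 46 of 59, 27 of 36 and 38 of 55 summits were within 300 bp. In 6 genes (Efna5, Epha6, Ntn4, Ntn5, Robo2 and Sema6b) every such summit was over 1 kb away. For 9 of the 61 genes with a promoter peak a TSS of another gene also lay within 2 kb of the summit, and for Epha4, Epha6, Nrp1 and Unc50 that start was the nearer one in at least 1 list. Such a peak cannot be assigned to 1 of the genes.

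The direction of the difference between the groups depended on the measure and on Ctrl2. By percentile, of the 61 genes with a promoter peak in any list, 16 had a higher percentile in both cKO libraries than in both Ctrl libraries (26.2%), against 20.5% of the 13196 protein-coding genes with any promoter peak. None was lower in both cKO libraries, against 2.8% of all such genes. The 16 were Efna5, Epha5, Epha10, Ephb3, Ephb4, Ephb6, Nrp2, Ntn5, Plxnb1, Plxnb2, Robo2, Sema3c, Sema5a, Sema6d, Slit2 and Unc5d. In Sema5a and Sema6d the strongest promoter peak of Ctrl1 was not the strongest in both cKO lists. All 16 stood at 0 in Ctrl2. Since every gene without a peak ties at 0, the lowest percentile that a peak could have was 42 in Ctrl1, 59.7 in cKO1 and 44.1 in cKO2. Against Ctrl1 alone, 17 genes were higher and 17 lower in both cKO libraries, where the genome had 23.8% higher and 36.6% lower. The median difference of percentile, cKO minus Ctrl, was 30 for the guidance genes and 29.5 for all genes, and without Ctrl2 it was −1.28 and −1.7.

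The largest differences in percentile among the 16 were in Ntn5, Efna5, Ephb3, Plxnb1 and Plxnb2. The mean of Ntn5 was 58.7 ± 7.86 in cKO (SD, n = 2) and 0 in both Ctrl libraries. Efna5 averaged 88.9 ± 6.05 in cKO and 38.5 ± 54.4 in Ctrl, and without Ctrl2 its difference of 50.4 was 11.9. Ephb3 differed by 48.2, or 2.79 without that library, Plxnb1 by 41.9 or 9.8, and Plxnb2 by 41.6 or 13.7. With promoters of 1 kb the differences of Ntn5 and Efna5 were 0, since their summits lie farther out. With lists cut to the size of the shortest those of Ntn5 and Plxnb2 were 0, and with a −log10 q of at least 5 that of Ntn5 was 26.6. Ephb3 kept 48.2 and Plxnb1 39.1 with equal-size lists. With genes lacking a peak placed at mid-ranks instead of 0, all of these differences were smaller. They were 25.2 for Ntn5, 27.5 for Efna5, 25.3 for Ephb3, 19 for Plxnb1 and 18.7 for Plxnb2. For each of these 5 genes the exact permutation test gave p = 0.333, the smallest that 2 libraries per group allow, and an adjusted p of 1 over 13196 genes. That p was fixed by the choice of genes with separated groups and adds no evidence.

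**Figure D4:**
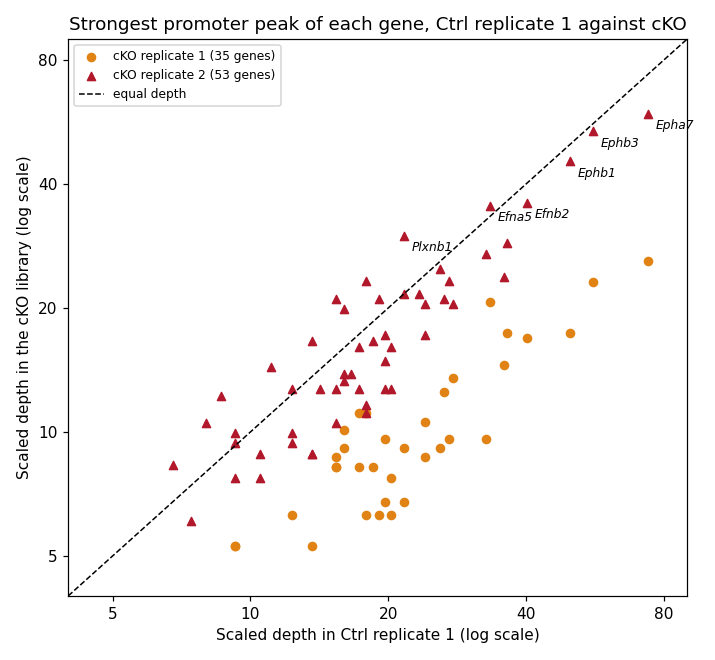
Scaled depth of the strongest promoter peak in Ctrl1 (horizontal, log scale) against the same gene in cKO1 (circles, 35 genes) or cKO2 (triangles, 53 genes); the dashed line marks equal depth. All circles lie below the line, and triangles lie on both sides of it.

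On the scaled depth, meaning fragments at the summit relative to the genome-wide mean of that library, the comparison could be made for the 35 genes with a promoter peak in Ctrl1 and both cKO libraries, which leaves out Ntn5. Of these, 27 were lower in both cKO libraries (77.1%), against 82.8% of 8730 protein-coding genes, and 0 were higher, against 0.149%. By percentile against Ctrl1, the same 35 genes counted 16 higher in both cKO libraries (45.7%) and 3 lower (8.57%), against 35.6% and 28.1% of the 8730 genes. The ratio to Ctrl1 had a median of 0.441 in cKO1 (range 0.295 to 0.642) and 0.852 in cKO2 (0.626 to 1.39). The medians over all genes were 0.37 and 0.84. These ratios take the strongest promoter peak of each list, which was not always the same peak. The Sema6d summit was at chr2:124610306 in Ctrl1 and chr2:124653325 in cKO2. Sema5a, Sema6a and Epha4 also had separate strongest peaks in Ctrl1 and a cKO list. At Epha7 the scaled depth was 74 in Ctrl1, 4.62 in Ctrl2, 26 in cKO1 and 59.2 in cKO2. At Efnb2 it was 40.1, 4.33, 16.9 and 36. At each gene the Ctrl values enclosed those of cKO. Plxnb1, with ratios of 0.425 and 1.39, and Epha10, with 0.563 and 1.36, had the widest gaps upward in cKO2 among these 35 genes.

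Co-receptors and effectors of the same pathways, a list of 59 genes that includes the DCC relative Neo1 and intracellular partners of these receptors, had promoter peaks in 51, 8, 34 and 49 genes in Ctrl1, Ctrl2, cKO1 and cKO2. Of the 52 with a peak in any list, 15 had a higher percentile in both cKO libraries (28.8%) and 2 a lower one (3.85%), against 20.5% and 2.8% of all genes. Against Ctrl1 alone 17 were higher and 15 lower, where 3139 and 4826 of all 13196 genes were. In all 4 lists a peak was found for 8 of the 59 genes (13.6%, against 8.02%).

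Long introns carried most of the remaining peaks. Summits inside a guidance gene and over 2 kb from its own TSSs numbered 262, 17, 79 and 251 in the 4 libraries. Per 100 kb of gene body this was 2.2, 0.142, 0.662 and 2.1, against 1.5, 0.166, 0.526 and 1.41 over all protein-coding genes. The groups overlapped, with 165 ± 122 in cKO and 140 ± 173 in Ctrl (SD, n = 2 each), and the difference of 25.5 became −97 without Ctrl2. In that library 58.8% of the gene-body peaks lay mostly in repeats, against 1.91% to 5.06% in the other lists. Across the 71 genes the number of body peaks followed gene length, with a Spearman rho of 0.846 in Ctrl1, 0.528 in Ctrl2 (17 peaks), 0.778 in cKO1 and 0.819 in cKO2. This describes genes that share a library and its depth, and the 32 genes over 100 kb held 90.8%, 100%, 96.2% and 90.4% of the peaks.

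**Figure D5:**
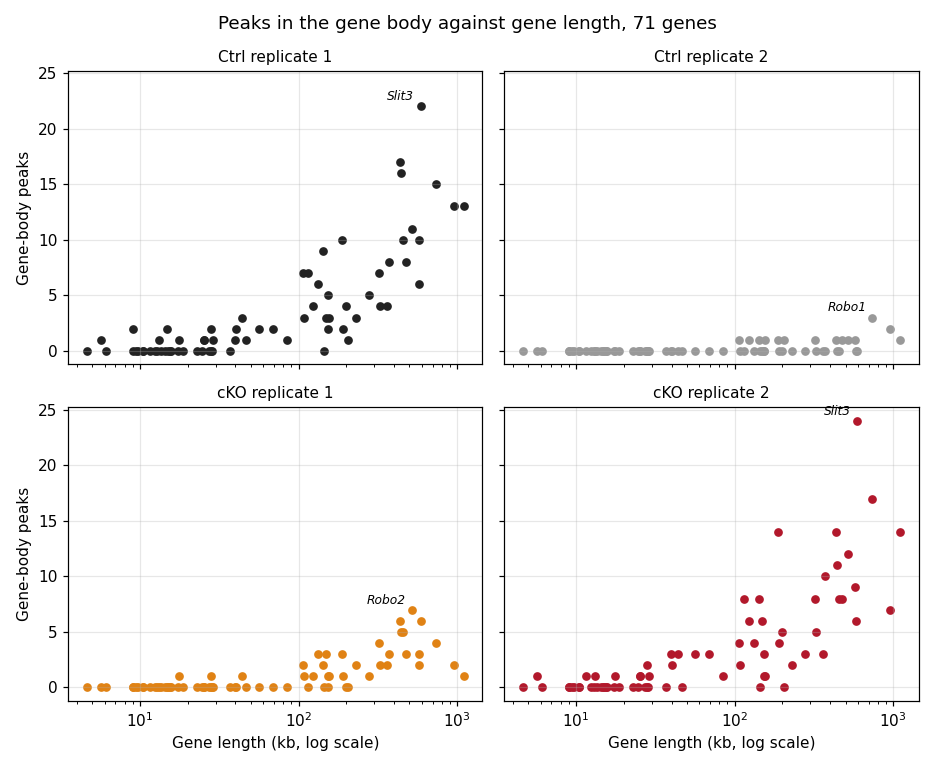
Number of gene-body peaks of each of the 71 genes (vertical axis) against gene length (kb, log scale), 1 panel per library, with the gene with the most peaks named. Slit3 leads in Ctrl1 and cKO2, with 22 and 24 peaks, and Ctrl2 has at most 3 in a gene.

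Slit3, whose promoter was weak, had the most body peaks, with 22 in Ctrl1, 0 in Ctrl2, 6 in cKO1 and 24 in cKO2. Robo1 had 15, 3, 4 and 17, Ephb1 17, 1, 6 and 14, and Plxna4 16, 0, 5 and 11. Robo2 had 11, 1, 7 and 12. For each of these genes Ctrl1 and cKO2 were above both remaining libraries. Among bodies of at least 50 kb the densest were Ephb2, with a mean of 3.71 peaks per 100 kb, Slit1 with 3.49, Ntn4 with 3.29, Nrp2 with 3.25 and Sema6a with 2.44. Slit1 had 9, 1, 2 and 8 body peaks and Sema4d 3, 0, 1 and 2, both without a promoter peak.

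The regions with printed sequences were chosen by rank, and so were deep in the 3 longer lists. The Epha6 region (chr16:60102041-60102746), in an intron 503 kb from the start of this EphA receptor gene, held 75 fragments at the summit in Ctrl1, 59 in cKO1 and 113 in cKO2. Its ranks were 1755, 340 and 307. The Robo1 region 36.4 kb from a Robo1 TSS (chr16:72699090-72699844) was in all 4 lists, with 89, 22, 50 and 107 fragments in Ctrl1, Ctrl2, cKO1 and cKO2. The second Robo1 region (chr16:72510585-72511328) was also in all 4, with 81, 17, 46 and 93. It lies 152 kb upstream of the only Robo1 TSS used, at 72663149. The record of the gene starts earlier, at 72308306, and the region is classed as intronic on that record. At the Ephb2 region (chr4:136716345-136717167) 53, 35 and 72 fragments were counted in Ctrl1, cKO1 and cKO2. Each of these intronic peaks held more fragments than the promoter peak of its own gene in Ctrl1, cKO1 and cKO2, except the Ephb2 region in Ctrl1 (53 against 58). Because they were chosen by rank, this does not describe the other gene-body peaks. Scaled to the mean depth, the Epha6 region stood at 46.2, 28.4 and 62.5, the first Robo1 region at 54.9, 6.35, 24.1 and 59.2, and the second at 49.9, 4.91, 22.2 and 51.5. In these 3 cKO2 was the highest library and cKO1 lay below Ctrl1, an order that many regions did not share. Of the 72 gene-body regions held by Ctrl1 and both cKO lists, 36 had it (50%, against 43.6% of 4715 such regions over all protein-coding genes), 32 were lower in both cKO libraries than in Ctrl1 (44.4%, against 48.8%) and 4 were higher in both (5.56%, against 5.98%). Ranks within the lists, which differ in length, were 1735, 2363, 1034 and 761 at the first Robo1 region, 2098, 4260, 1812 and 1326 at the second, and 4565, 2587 and 2470 in Ctrl1, cKO1 and cKO2 at the Ephb2 region. Rank numbers run up to the length of the list, 46389 in Ctrl1 and 21404 in cKO1. A lower number in cKO1 therefore need not mean a stronger peak. By rank number alone, both cKO libraries were ahead of each Ctrl library with a peak in 39 of the 72 regions (54.2%, against 41.9% over all protein-coding genes). Both were behind in 13 (18.1%, against 20.4%). These counts were added after the values were seen and carry no test.

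Merged over the lists, the gene-body peaks formed 336 regions, of which 319 were intronic (94.9%), 10 in a UTR and 7 in a coding exon, and 9 touched a CpG island. Shared regions numbered 110 in Ctrl1 and cKO2 alone (32.7%), 65 in every list but Ctrl2 (19.3%) and 7 in all 4 (2.08%), near the 29.1%, 19.6% and 2.75% of all gene-body regions. Of those 7, 2 were in Robo1, and Epha6 (68.4% repeat-masked), Ephb1 and a UTR of Ephb2 held 1 each, while those in Sema3c and Epha3 lay wholly in repeats. The cKO lists shared 4 regions that neither Ctrl list held (1.19%), in Robo2, Epha4, Slit2 and Unc5c, against 0.81% of 21123 regions over all protein-coding genes. The Unc5c region was wholly repeat-masked. A single region in Ntn4 was found in Ctrl1 and Ctrl2 but not in cKO (0.298%), against 0.308%.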

How the data were processed

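ATAC-seq of P0 hippocampus was analysed in 4 libraries, 2 cKO and 2 Ctrl, grouped by their titles. According to the study's methods and the submitters' processing notes, reads were trimmed with cutadapt, aligned to mm10 with Bowtie2, cleared of blacklisted and mitochondrial reads (SAMtools) and duplicates (Picard), and peaks were called per library, unpooled, with MACS2 2.2.7.1. Each deposited list gives a score, which was not used, a fold enrichment (ratio of depth to local background), −log10 p and −log10 q values, and a summit. In the deposited lists the lowest −log10 q was 1.31 to 1.32. Lists called separately share no scale, so genes were ranked within a list by the authors' −log10 p.

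Fragment depth was recovered from the fold and p: MACS2 adds 1 to both depths and uses a Poisson test, and whole numbers fitted within 0.01 for at least 99.986% of peaks per list. Fragment totals also used the MACS2 mouse genome size of 1870000000 bp. Intervals and depths cover counting error only. Median depth at a summit was 18 to 20 fragments per library. Genes and TSSs came from GENCODE M21 (basic), sequences from GRCm38, and CpG islands were computed from non-repeat bases (at least 200 bp, 50% GC, observed over expected 0.6). A percentile was 0 for a gene without a promoter peak, and the lowest possible with a peak was 42, 91.7, 59.7 and 44.1 in Ctrl replicates 1 and 2 and cKO replicates 1 and 2.

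Counts over the genes carry no test. Single genes were compared by a two-sided exact permutation test over 6 assignments of libraries, with Benjamini-Hochberg adjustment over 13196 genes. The genes and lists were chosen with earlier results of these data known. Genes named in the text were those with a promoter peak in all or no lists, the 10 strongest promoters, the 5 largest separated differences each way, the 5 with most body peaks (in number, and per 100 kb in bodies of at least 50 kb) and the extremes of each family. Others were named for their role after their values were seen, as were the Slit1 peak outside the limit and the scaled-depth comparison. The deviations of same-numbered replicates had r = 0.053 over 13196 genes. With 2 libraries per group the crossed pairing gives −0.053 by construction, so this r cannot decide whether the libraries are paired. The numbers were not taken as pairs. A gene-body region chosen by the sequence rule and a motif are not reported here. Python 3.11.15, numpy 2.4.6, pandas 2.3.3 and scipy 1.17.1 were used, and scripts were tested on simulated data. Alternatives were a −log10 q of at least 5, equal-size lists, no repeat-masked peaks, other promoter and island definitions, mid-ranks, leaving out each library and a replicate block.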

Additional observations from a re-analysis of the deposited data

How the results depend on the processing

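The difference in genes with a promoter peak (15, cKO minus Ctrl) was 3 with lists cut to the size of the shortest, and 43.5, −13.5, 24.5 and 5.5 without Ctrl replicate 1, Ctrl replicate 2, cKO replicate 1 and cKO replicate 2. In that order of libraries left out, gene-body peaks (25.5) gave 148, −97, 112 and −60.5, and island genes with a promoter peak (23.8 percentage points) 66.4, −18.9, 37.7 and 9.84. The sign of each therefore depended on single libraries. With lists cut to the size of the shortest, the difference was 3 for gene-body peaks and 4.92 percentage points for island genes. The excess of genes ranked higher in both cKO libraries over those ranked lower (16) was 2 with equal-size lists, 10 with genes lacking a peak at mid-ranks, and 34, 0, 31 and 28 without each library in turn. With a replicate block, pairing the libraries by number, it was 28, and the other 3 differences did not change. In the 35 genes with a promoter peak in Ctrl replicate 1 and both cKO libraries, and without Ctrl replicate 2, it was −27 on scaled depth and 13 on percentiles, both chosen after seeing the data. The cause was not tested. The other definitions of peaks, promoters and islands kept these results within 1.5 times or 1 SD of the values above. Differences of single named genes rested on Ctrl replicate 2: without it 7 of 20 changed sign and 11 shrank by more than 1.5 times, as in Ephb1 (45.4 to 0.114), Ephb2 (36.6 to −4.31), Sema4b (37 to −4.32) and Slit3 (4.24 to −17.1). With 2 libraries per group, a peak threshold that differs between lists and no depth outside peaks, a missing peak cannot be read as closed chromatin.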
